A study of Homo sapiens with 12 samples.

Results

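The 10 genes described here encode transcription factors that specify the melanocyte lineage or accompany the switch of melanoma cells between a differentiated and an invasive state: MITF, SOX10, PAX3, TFAP2A, LEF1, POU3F2, ZEB2, ZEB1, SOX9 and SOX5. They were chosen by name and are 10 of the 56638 gene symbols in the count table. 501Mel, an established human melanoma cell line, was exposed for 48 h to vehicle (DMSO), 1 µM of the BRAF inhibitor Vemurafenib (Vem), 10 nM TCDD, 5 µM Resveratrol (RSV), RSV+Vem or RSV+TCDD, with 2 libraries in each of the 6 groups and 12 in all. For RSV+TCDD the sample labels name 1 nM TCDD, whereas the treatment protocol and the methods of the study give 10 nM. Every group is the same cell line, no genotype was changed, and no source used here states that both libraries of a group came from separate cultures, so the p-values measure the spread between these libraries, which may be technical. TCDD is the classical ligand of the aryl hydrocarbon receptor (AhR), the study treats Vem as a further ligand and RSV as an antagonist, and the comparisons ask what each agent, alone and combined, did to the transcriptome.

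MITF is the basic helix-loop-helix factor that switches on the genes of melanin synthesis and melanosome formation in melanocytes. SOX10, inherited from the neural crest, and PAX3 act on the MITF promoter, LEF1 is the nuclear partner of β-catenin in Wnt signaling and works on the same promoter, and TFAP2A shares enhancers of pigment genes with MITF. POU3F2, also called BRN2, is a POU domain factor known to lie downstream of BRAF and ERK signaling in melanoma and to mark invasive cells. ZEB2 is the ZEB factor of differentiated melanocytes and ZEB1 that of dedifferentiated melanoma cells, SOX9 rises in many dedifferentiated melanomas as SOX10 is lost, and SOX5 can hold back SOX10 activity at melanocyte promoters.

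Counts on genes per library ranged from 8378655, in replicate 2 of RSV+Vem, to 25076925, and the share of counts on the ERCC spike-ins ranged from 0.031 to 0.0936%. The spike-in share was 0.0903% in this shallowest library and 0.0389% in replicate 1 of RSV+Vem, 0.063 and 0.0936% in the RSV+TCDD libraries, and at most 0.0457% in the other 8. The RNA integrity number (RIN) was 8.7 and 8.6 in the RSV+Vem libraries and 9.1 to 9.7 in the others. Levels are given as CPM, a gene's count relative to the library total after scaling with edgeR's TMM factors, and a gene was called higher or lower at an adjusted p below 0.05 from edgeR's quasi-likelihood test over 16080 genes. The summed level of 6 melanocyte markers was 10300 to 49400 CPM, and that of 4 leukocyte markers 0 to 0.405, of 4 endothelial markers 0.283 to 2.5, of 5 keratinocyte markers 13.8 to 26 and of 5 fibroblast markers 6.99 to 39.6 CPM. KRT1 and PECAM1 were at 0 counts in all libraries, KRT10 held most of the keratinocyte sum and LUM most of the fibroblast sum. Few of these markers of other cell types passed the filter. With RSV, 1 of 1 tested keratinocyte markers was lower, and 1 of 3 fibroblast and 2 of 2 endothelial markers were higher, with Vem 1 of 3 fibroblast markers was higher and 2 were lower and 1 of 2 endothelial markers was higher, and with TCDD 1 of 3 fibroblast markers was higher. Of all tested genes 40.7% were called with RSV, 52.4% with Vem and 6.73% with TCDD. No endothelial marker held more than 26 counts in a library. The part of these markers in the results was not tested. In bulk RNA, a change in every cell and a change in a share of the cells cannot be told apart.

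The 250 bases before the annotated start (GENCODE release 44 on GRCh37) are shown for MITF, the central factor of the lineage, and for POU3F2, the factor that Vem changed most, because theirs were the 2 windows with a TCF/LEF core. Capitals mark the TCF/LEF core CTTTGA on either strand, which reads TCAAAG on the other strand. The window of MITF is that before its melanocyte-type transcript, chr3:69985493-69985742 on the plus strand, and that of POU3F2 is chr6:99282200-99282449 on the plus strand.
MITF: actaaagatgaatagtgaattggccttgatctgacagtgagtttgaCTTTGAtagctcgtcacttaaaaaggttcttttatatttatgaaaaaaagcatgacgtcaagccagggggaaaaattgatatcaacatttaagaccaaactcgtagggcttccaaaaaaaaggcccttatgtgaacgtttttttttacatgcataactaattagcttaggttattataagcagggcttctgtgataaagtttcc
POU3F2: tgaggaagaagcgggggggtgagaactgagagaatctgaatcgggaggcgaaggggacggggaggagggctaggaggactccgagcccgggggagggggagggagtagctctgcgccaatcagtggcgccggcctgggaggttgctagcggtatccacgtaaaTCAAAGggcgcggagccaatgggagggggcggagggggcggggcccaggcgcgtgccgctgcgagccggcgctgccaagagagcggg

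The TCF/LEF core began 204 bases before the start in MITF and 87 bases before it in POU3F2, and was in 2 of the 10 windows, against 9.14% of the 19792 promoters searched. GCGTG, the core of the AhR response element, was in 4 windows (PAX3, ZEB2, POU3F2 and SOX5), against 40.3% of all promoters. The M-box core CATGTG was in the window of ZEB2 (7.09% of all promoters), the SOX core ACAAT in that of SOX9 (17.7%) and the ZEB-type E-box CAGGTG in that of ZEB1 (17.4%). The E-box CACGTG (7.88%) and the AP-2 motif GCCNNNGGC (25.7%) were in none of the 10. Both strands were searched in every window, no motif overlapped another in these windows, and a match describes the letters only.

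Levels of different genes were set side by side per kb of exon, with the exons of all annotated transcripts merged. The order depends on this annotated length, such as 26151 bases for ZEB2 and 4885 for POU3F2, which need not be the length expressed. On this scale SOX10 and MITF led in vehicle at 148.8 and 143.8 CPM per kb. TFAP2A followed at 24.06, LEF1 at 10.88, ZEB2 at 7.953, PAX3 at 5.808, POU3F2 at 5.184 and SOX5 at 2.861 CPM per kb. ZEB1 was at 0.01403 CPM per kb and SOX9 at 0. Among the factors that mark invasive or dedifferentiated cells, POU3F2 was thus just below PAX3, and ZEB1 and SOX9 were at or near 0.

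**Figure D1:**
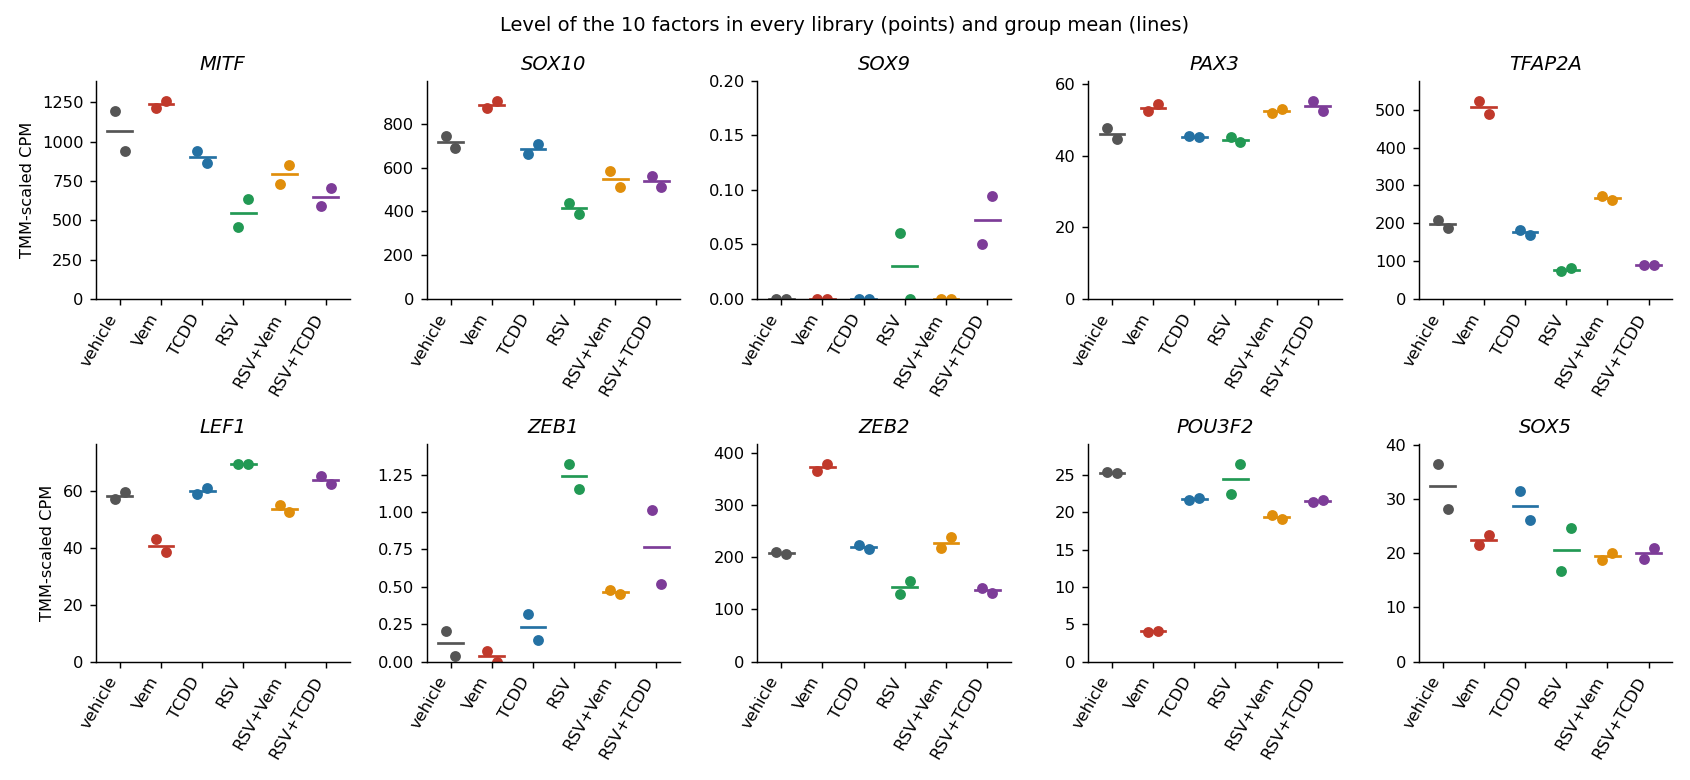
TMM-scaled CPM (vertical axes, each from 0 and each with its own range) of the 10 factors in the 6 groups, with a point for each library and a line at the mean of 2. POU3F2 was at 4.03 and 4.07 CPM with Vem and at 19.1 or more in every other library, while TFAP2A was highest with Vem and lowest with RSV.

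Vem moved the factors in both directions: of the 9 that passed the filter on low counts, 3 were higher than in vehicle (SOX10, TFAP2A and ZEB2) and 3 lower (LEF1, POU3F2 and SOX5), where 52.4% of all tested genes were called, 25.5% higher and 26.9% lower. RSV lowered 5 (MITF, SOX10, TFAP2A, ZEB2 and SOX5) and raised 2 (LEF1 and ZEB1), where 40.7% of all genes were called, 20.5% higher and 20.2% lower. TCDD changed 0 of the 9, where 6.73% of all genes were called, 4.72% higher and 2.01% lower. With TCDD, 0 of them had an unadjusted p below 0.05 and 0 were called by DESeq2. SOX9 did not pass the filter, and without a filter it was called in none of the comparisons (adjusted p of at least 0.508). ZEB1 passed the filter only through libraries with RSV, where its counts were highest.

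**Figure D2:**
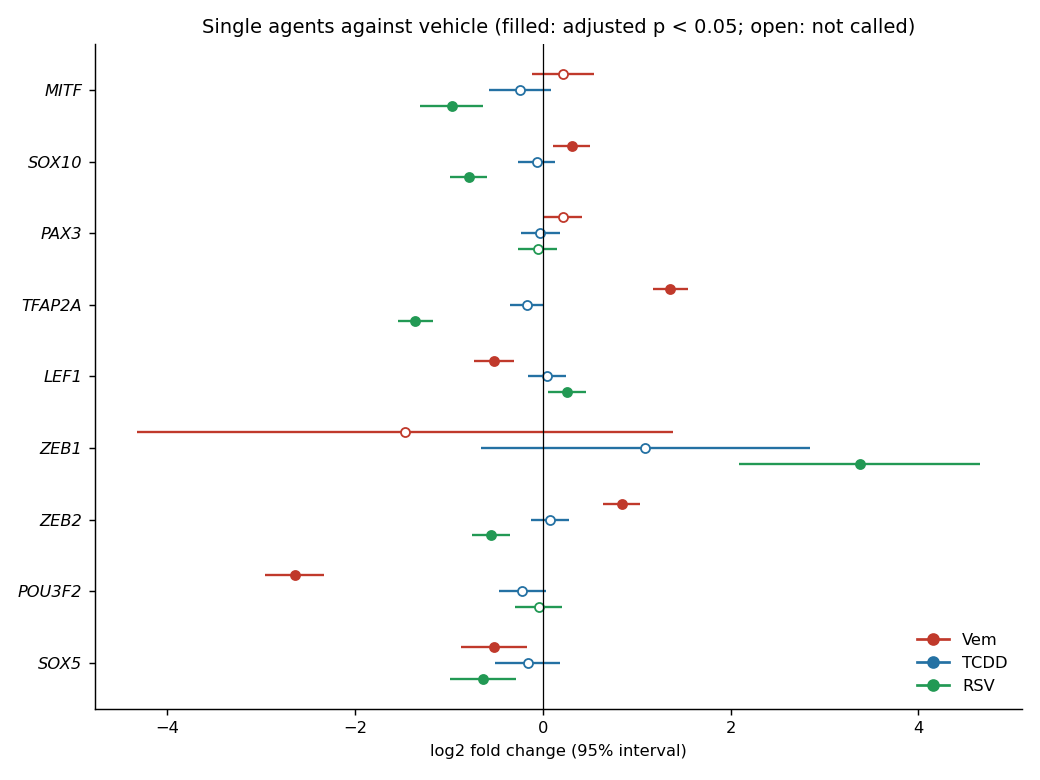
Log2 fold change against vehicle (horizontal axis) of the 9 tested factors with Vem, TCDD or RSV, with 95% intervals, filled where the adjusted p was below 0.05. TFAP2A lay at 1.36 with Vem and at -1.36 with RSV, POU3F2 at -2.64 with Vem only, and the interval of ZEB1, which rests on few counts, is the widest.

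MITF was at 1196 and 938 CPM in vehicle, 1215 and 1259 with Vem, 943 and 862 with TCDD, 457 and 633 with RSV, 732 and 850.1 with RSV+Vem, and 587 and 707 with RSV+TCDD. Its libraries with RSV were below all libraries without RSV. In the order of the group means, Vem, vehicle, TCDD, RSV+Vem, RSV+TCDD and RSV, the ranges of vehicle and TCDD and those of RSV+TCDD and RSV overlapped. RSV lowered MITF to 0.511 of the vehicle level, or -0.97 ± 0.15 (SE) as a log2 fold change (adjusted p = 0.000355). Vem alone was not called (0.21, 95% interval -0.12 to 0.55, adjusted p = 0.264), nor was TCDD (-0.24, interval -0.57 to 0.092). The 2 vehicle libraries differed by 0.35 and the 2 RSV libraries by 0.47 on the log2 scale, the widest spreads among the MITF groups. Under scaling to the spike-ins the RSV value of MITF was -1.16, with a standard error of 0.43, and was no longer called (adjusted p = 0.15). Standard errors of the factors were wider under this scaling, so a lost call need not be a smaller change.

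MITF was higher with Vem than with TCDD in the direct comparison (0.45, adjusted p = 0.0257), in which 4 of the 9 factors were higher and 2 lower and 50.6% of all genes were called, 24.1% higher and 26.4% lower. The call was lost whichever library was left out, with the value between 0.39 (without TCDD replicate 2) and 0.52 (without TCDD replicate 1). SOX10, TFAP2A and ZEB2 were the other factors above their TCDD level, and LEF1 and POU3F2 those below it.

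SOX10 was at 746 and 691 CPM in vehicle, 872 and 906 with Vem, 664 and 710.1 with TCDD, 441 and 389.9 with RSV, 586 and 511 with RSV+Vem, and 564 and 511 with RSV+TCDD. Its lowest library with Vem stood above its highest in vehicle, and both RSV libraries stood below all others. RSV lowered it, to -0.79 (standard error 0.094, adjusted p = 4.85e-06). The rise with Vem was 0.31 (standard error 0.093, adjusted p = 0.00965) and was lost without vehicle replicate 2 (0.27, adjusted p = 0.0584) or Vem replicate 2 (0.28, adjusted p = 0.0682). Under scaling to the spike-ins the median gene lay at -0.68 for Vem, and SOX10 lay above it at -0.34 (adjusted p = 0.569), while the RSV value was -0.95 and was no longer called (adjusted p = 0.287).

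TFAP2A, the AP-2α factor, covered the widest range of the highly expressed factors: 207 and 188 CPM in vehicle, 524 and 489 with Vem, 182 and 170.0 with TCDD, 73.7 and 80.7 with RSV, 271 and 261 with RSV+Vem, and 88.4 and 89.8 with RSV+TCDD. No 2 groups overlapped. Vem raised it 2.56-fold (log2 fold change 1.36, standard error 0.089, adjusted p = 6.75e-10), and RSV lowered it to 0.391 of vehicle (-1.36, standard error 0.090, adjusted p = 7.91e-09). The change with TCDD was -0.17 and was not called (interval -0.35 to 0.018, adjusted p = 0.286). Under spike-in scaling the Vem value was 0.71 and was no longer called (adjusted p = 0.205), while the RSV value was -1.53 and was (adjusted p = 0.0207).

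PAX3, the paired-box factor, was at 47.6 and 44.6 CPM in vehicle, 52.5 and 54.4 with Vem, 45.4 and 45.2 with TCDD, 45.2 and 43.7 with RSV, 51.8 and 52.9 with RSV+Vem, and 55.3 and 52.3 with RSV+TCDD. The 6 libraries with Vem, RSV+Vem or RSV+TCDD stood above the other 6, but PAX3 was called in none of the comparisons. Its difference from vehicle was 0.21 with Vem (interval 0.0052 to 0.42, adjusted p = 0.0794), -0.025 with TCDD (-0.23 to 0.18) and -0.053 with RSV (-0.26 to 0.15). Several alternatives called it higher with Vem than with TCDD, and 3 called it higher with RSV+TCDD than with TCDD, as given in the closing section.

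LEF1 was at 57.1 and 59.6 CPM in vehicle, 43.1 and 38.4 with Vem, 59.1 and 61.2 with TCDD, 69.6 and 69.7 with RSV, 55.0 and 52.6 with RSV+Vem, and 65.3 and 62.7 with RSV+TCDD. Only the ranges of vehicle and TCDD overlapped. Vem lowered it, to -0.52 (standard error 0.10, adjusted p = 0.000278). The rise with RSV was 0.26 (standard error 0.097, adjusted p = 0.0434). The call was lost under spike-in scaling (0.085, adjusted p = 0.967), with no filter on low counts (0.24), with only the 4 libraries compared in the fit (0.26, adjusted p = 0.13) and whichever library was left out, at 0.22 without vehicle replicate 1, 0.29 without vehicle replicate 2, and 0.25 without either RSV library.

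POU3F2 was the factor that Vem changed most: 25.4 and 25.3 CPM in vehicle, 4.03 and 4.07 with Vem, 21.6 and 21.9 with TCDD, 22.5 and 26.6 with RSV, 19.7 and 19.1 with RSV+Vem, and 21.4 and 21.6 with RSV+TCDD. The Vem libraries, with 58 and 53 counts, were far below the other 10, and vehicle and RSV overlapped. With Vem POU3F2 was at 0.16 of its vehicle level (log2 fold change -2.64, standard error 0.15, adjusted p = 1.29e-10), and the call held under spike-in scaling (-3.29, adjusted p = 1.05e-08). RSV alone left it at -0.045 (interval -0.29 to 0.20) and TCDD at -0.22 (interval -0.47 to 0.033), neither called. POU3F2 is a gene of 1 exon, at chr6:99282450-99287334 on the plus strand.

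ZEB2 was at 210.15 and 206 CPM in vehicle, 365 and 379 with Vem, 223 and 216 with TCDD, 129 and 155 with RSV, 217 and 238 with RSV+Vem, and 141 and 131 with RSV+TCDD. Vem stood above and the RSV and RSV+TCDD libraries below all others, and RSV+Vem overlapped TCDD. Vem raised it by 0.84 (standard error 0.095, adjusted p = 7.02e-07) and RSV lowered it, to -0.55 (standard error 0.095, adjusted p = 0.000188). Under spike-in scaling neither was called, at 0.19 with Vem (adjusted p = 0.769) and -0.74 with RSV (adjusted p = 0.467).

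ZEB1 held 4 and 1 counts in vehicle, 1 and 0 with Vem, 7 and 2 with TCDD, 22 and 22 with RSV, 9 and 4 with RSV+Vem, and 20 and 11 with RSV+TCDD per library. The RSV libraries were the highest at 1.33 and 1.15 CPM, so that even there ZEB1 stayed far below ZEB2. By summed counts the level with RSV was 11 times that in vehicle. The 95% interval, from 4.37 to 35.5, covers counting error only. ZEB1 was called higher with RSV by edgeR's quasi-likelihood test (adjusted p = 0.000305), and also with no filter on low counts. Under the filter ZEB1 was tested only because of its higher counts in libraries with RSV, so that call is not independent of the filter. The fitted log2 value of 3.37 was 4.70 without vehicle replicate 1 and 2.57 without vehicle replicate 2, called in both. ZEB2 thus fell and ZEB1 rose with RSV, at very different levels. The antisense transcript ZEB1-AS1, which shares 396 exon bases with ZEB1, held 1 and 0 counts in vehicle and 6 and 5 with RSV, and its part in the ZEB1 result was not tested.

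SOX9 had 0 counts in 9 of the 12 libraries, 1 count in RSV replicate 1, and 1 and 2 counts in the RSV+TCDD libraries. A count of 0 in both libraries of a group allows up to 3 counts, which is 0.0674 CPM in vehicle and 0.109 CPM with Vem, so a fall of SOX9 or a rise within these limits was not detectable at this depth. SOX5 was at 36.5 and 28.1 CPM in vehicle, 21.5 and 23.4 with Vem, 31.4 and 26.1 with TCDD, 16.7 and 24.6 with RSV, 18.8 and 20.0 with RSV+Vem, and 18.9 and 21.0 with RSV+TCDD. Vehicle and TCDD stood above the other groups, which overlapped in a chain from Vem to RSV+Vem. SOX5 was lower with Vem (-0.52, adjusted p = 0.0149) and with RSV (-0.64, adjusted p = 0.00539), and each call depended on single libraries. Without vehicle replicate 1 the values were -0.33 for Vem and -0.45 for RSV, without Vem replicate 1 the Vem value was -0.46, and without RSV replicate 1 the RSV value was -0.39, none of them called. Under spike-in scaling the RSV value of SOX5 was -0.84 and was not called (adjusted p = 0.421).

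The question for the combined treatments was whether Vem and TCDD acted in the same way when RSV was present. Added to RSV, Vem raised 4 of the 9 factors (MITF, SOX10, TFAP2A and ZEB2) and lowered LEF1, where 24.7% of all genes were called, 11.3% higher and 13.4% lower. TFAP2A rose by 1.78 (standard error 0.091, adjusted p = 2.89e-10), ZEB2 by 0.68 (adjusted p = 5.89e-05), MITF by 0.54 (adjusted p = 0.0236) and SOX10 by 0.40 (adjusted p = 0.00431), and LEF1 was at -0.37 (adjusted p = 0.0107). POU3F2 was at -0.34 and was not called (interval -0.60 to -0.073, adjusted p = 0.0574). Without RSV+Vem replicate 1 the calls of SOX10 (0.30) and LEF1 (-0.41) were lost. Without the shallow RSV+Vem replicate 2 those of MITF (0.43) and LEF1 (-0.34) were lost. Fewer of all tested genes were called in both of these fits. Without RSV replicate 1 the MITF value was 0.32 and was lost and POU3F2 was called at -0.45, and without RSV replicate 2 the SOX10 value was 0.32 and was lost. Under spike-in scaling 0 of the 9 were called, where 481 of the 16080 tested genes were called. MITF (-0.0055) and SOX10 (-0.091) changed sign while the median of all genes moved by -0.523.

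**Figure D3:**
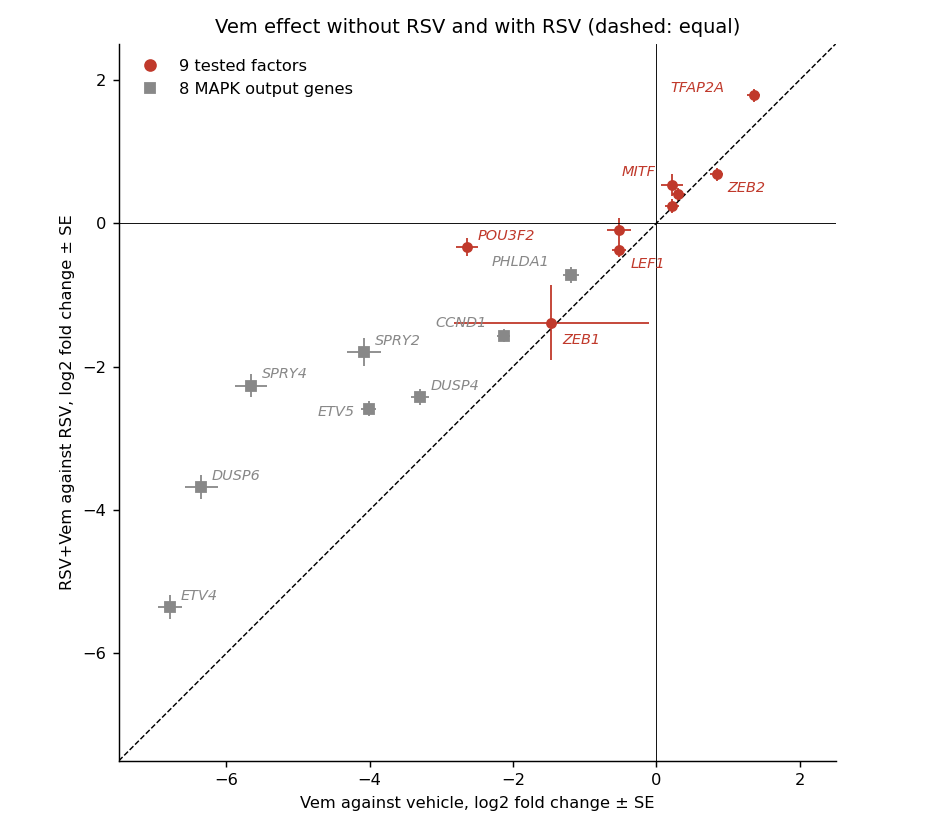
Log2 fold change with standard errors for Vem against vehicle (horizontal axis) and for RSV+Vem against RSV (vertical axis), for the 9 tested factors (circles) and 8 MAPK output genes (squares), with the dashed line where both are equal. POU3F2 lies at -2.64 without RSV and -0.34 with it, and all 8 MAPK output genes lie above the line.

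The test of that difference, the interaction of RSV and Vem, called 2 of the 9 factors, both higher, where 22.7% of all genes were called, 11.8% higher and 10.9% lower. For POU3F2 the effect of Vem was less negative with RSV by 2.31 (standard error 0.20, adjusted p = 6.87e-07), and the value stayed between 2.20 and 2.44 with any library left out. For TFAP2A the effect of Vem was larger with RSV by 0.43 (standard error 0.12, adjusted p = 0.0195). That call was lost without vehicle replicate 1 (0.36), Vem replicate 2 (0.38), RSV replicate 1 (0.37) or RSV+Vem replicate 1 (0.40), and without RSV replicate 2 MITF (0.58) and SOX5 (0.73) were called as well. The intervals were -0.15 to 0.79 for MITF, -0.18 to 0.37 for SOX10, -0.44 to 0.12 for ZEB2 and -0.15 to 0.44 for LEF1. Under spike-in scaling POU3F2 kept its value (2.45) without a call (adjusted p = 0.14). The RSV+Vem libraries, on which the interaction rests, had the lowest RIN of the series (8.7 and 8.6), and the part of RNA integrity in it was not tested.

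Genes of MAPK output, which report ERK activity, were read beside POU3F2. All 8 fell with Vem (median log2 fold change -4.05, against -0.030 over all tested genes) and all 8 fell with Vem in the presence of RSV (median -2.35, against 0.0024). Of all genes 26.9% were called lower with Vem and 13.4% with Vem added to RSV. In the interaction all 8 were called higher, with a median of 1.43 against 0.024 over all genes, of which 11.8% were called higher. DUSP6, an ERK phosphatase, was at 104.5 CPM in vehicle, 1.249 with Vem, 172.5 with RSV and 13.18 with RSV+Vem, and ETV4, an ETS factor, was at 113.6, 1.017, 66.7 and 1.611 CPM in the same groups. With RSV+Vem, POU3F2 was at 19.7 and 19.1 CPM against 25.4 and 25.3 in vehicle, a gap with no overlap. The part of MAPK output in the POU3F2 result was not tested.

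Added to Vem, RSV raised LEF1, ZEB1 and POU3F2 and lowered MITF, SOX10, TFAP2A and ZEB2, where 37.9% of all genes were called, 19.1% higher and 18.7% lower. POU3F2 rose by 2.26 (standard error 0.15, adjusted p = 9.00e-09), to 19.7 and 19.1 CPM. TFAP2A fell by 0.93 (adjusted p = 2.76e-07), ZEB2 by 0.71 (adjusted p = 1.26e-05), SOX10 by 0.70 (adjusted p = 1.38e-05) and MITF by 0.65 on the log2 scale (adjusted p = 0.00539). LEF1 rose by 0.40 (adjusted p = 0.00452), a call lost without Vem replicate 2 (0.32), and the MITF call was lost without RSV+Vem replicate 1 (-0.54). ZEB1 went from 1 count in both Vem libraries together to 13, a ratio of 12.9 with a counting interval from 1.93 to 547, and its call (adjusted p = 0.0186) was lost without Vem replicate 2 or RSV+Vem replicate 1 and with DESeq2 (adjusted p = 0.0704). Without Vem replicate 1 the remaining Vem library held 0 counts of ZEB1. Under spike-in scaling POU3F2 was the 1 factor called (2.23, adjusted p = 0.00123), where 389 of the 16080 tested genes were called.

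Added to TCDD, RSV lowered 5 factors (MITF, SOX10, TFAP2A, ZEB2 and SOX5) and raised ZEB1, where 37.7% of all genes were called, 18.6% higher and 19.1% lower. TFAP2A fell by 0.98 (adjusted p = 2.98e-07), ZEB2 by 0.69 (adjusted p = 2.84e-05), SOX5 by 0.53 (adjusted p = 0.0186), MITF by 0.48 (adjusted p = 0.0268) and SOX10 by 0.35 on the log2 scale (adjusted p = 0.00602). ZEB1 held 9 counts with TCDD and 31 with RSV+TCDD, a ratio of 3.01 (counting interval 1.4 to 7.18, adjusted p = 0.0424), and was not called by DESeq2. With any 1 library left out some of these calls were lost, and fewer of all tested genes were called as well. Without TCDD replicate 1 the lost values were MITF (-0.41), ZEB1 (2.31) and SOX5 (-0.39), and without TCDD replicate 2 they were MITF (-0.54), SOX10 (-0.30) and ZEB1 (1.25). Without RSV+TCDD replicate 1 they were MITF (-0.35), ZEB1 (1.04) and SOX5 (-0.46), and without RSV+TCDD replicate 2 SOX10 (-0.28). Under spike-in scaling 3 were called, MITF (-1.19), TFAP2A (-1.67) and ZEB2 (-1.36), where 1752 of the 16080 tested genes were called lower and 160 higher.

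**Figure D4:**
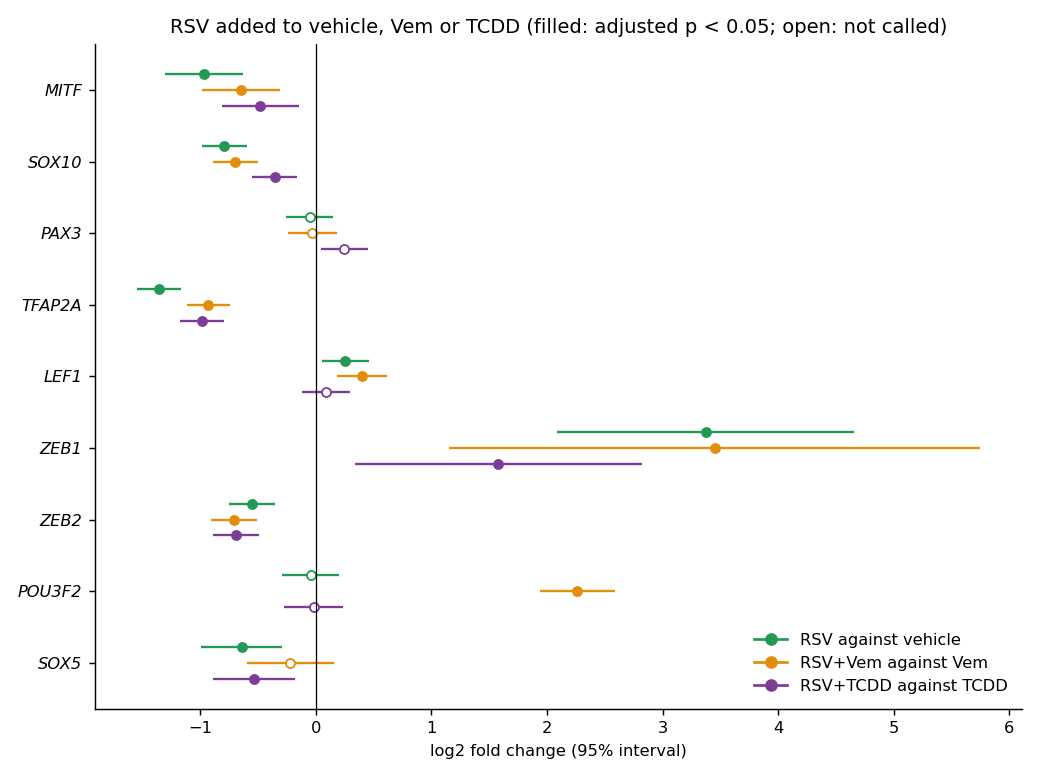
Log2 fold change with 95% intervals (horizontal axis) for RSV added to vehicle, to Vem and to TCDD, for the 9 tested factors, filled where the adjusted p was below 0.05. TFAP2A lay at -1.36, -0.93 and -0.98 and ZEB2 at -0.55, -0.71 and -0.69, while POU3F2 lay at 2.26 where Vem was present and at -0.045 and -0.016 where it was not.

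The 3 comparisons in which RSV was added share no library with each other and come from 1 fit, which gives them a common estimate of the spread. Under TMM scaling TFAP2A, MITF, SOX10 and ZEB2 were called lower in all 3 and ZEB1 higher in all 3. Of all tested genes 40.7%, 37.9% and 37.7% were called with RSV added to vehicle, Vem and TCDD. The share called the same way in all 3 was not computed, so this agreement does not set the factors apart. ZEB1 had passed the filter only through libraries with RSV. Under spike-in scaling TFAP2A was called lower for RSV against vehicle and RSV+TCDD against TCDD, MITF and ZEB2 for the latter, SOX10 in none, and ZEB1 was called higher for RSV against vehicle. Added to RSV, TCDD raised SOX10 alone among the 9 (0.37, standard error 0.093, adjusted p = 0.0245), where 6.16% of all genes were called, 3.89% higher and 2.28% lower. The SOX10 call was lost without RSV replicate 2 (0.29) or RSV+TCDD replicate 1 (0.30), and with only the 4 libraries compared in the fit (0.36, adjusted p = 0.0686). Under spike-in scaling SOX10 was at -0.65 (adjusted p = 0.157) where the median of all genes moved by -1.02. There 5 other factors (LEF1, ZEB1, ZEB2, POU3F2 and SOX5) were called lower, where 6926 of the 16080 tested genes were called lower. The interaction of RSV and TCDD called 0 of the 9 with edgeR and 0 with DESeq2, where 0.149% of all genes were called, 0.0124% higher and 0.137% lower. At an unadjusted p below 0.05 it held 4, MITF (0.49), SOX10 (0.44), TFAP2A (0.37) and PAX3 (0.30). The share of all genes at that unadjusted threshold was not computed, so these 4 cannot be set against the 0.149%. With no filter on low counts MITF and SOX10 were called, where 170 of the 31085 genes tested in that fit were called.

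**Figure D5:**
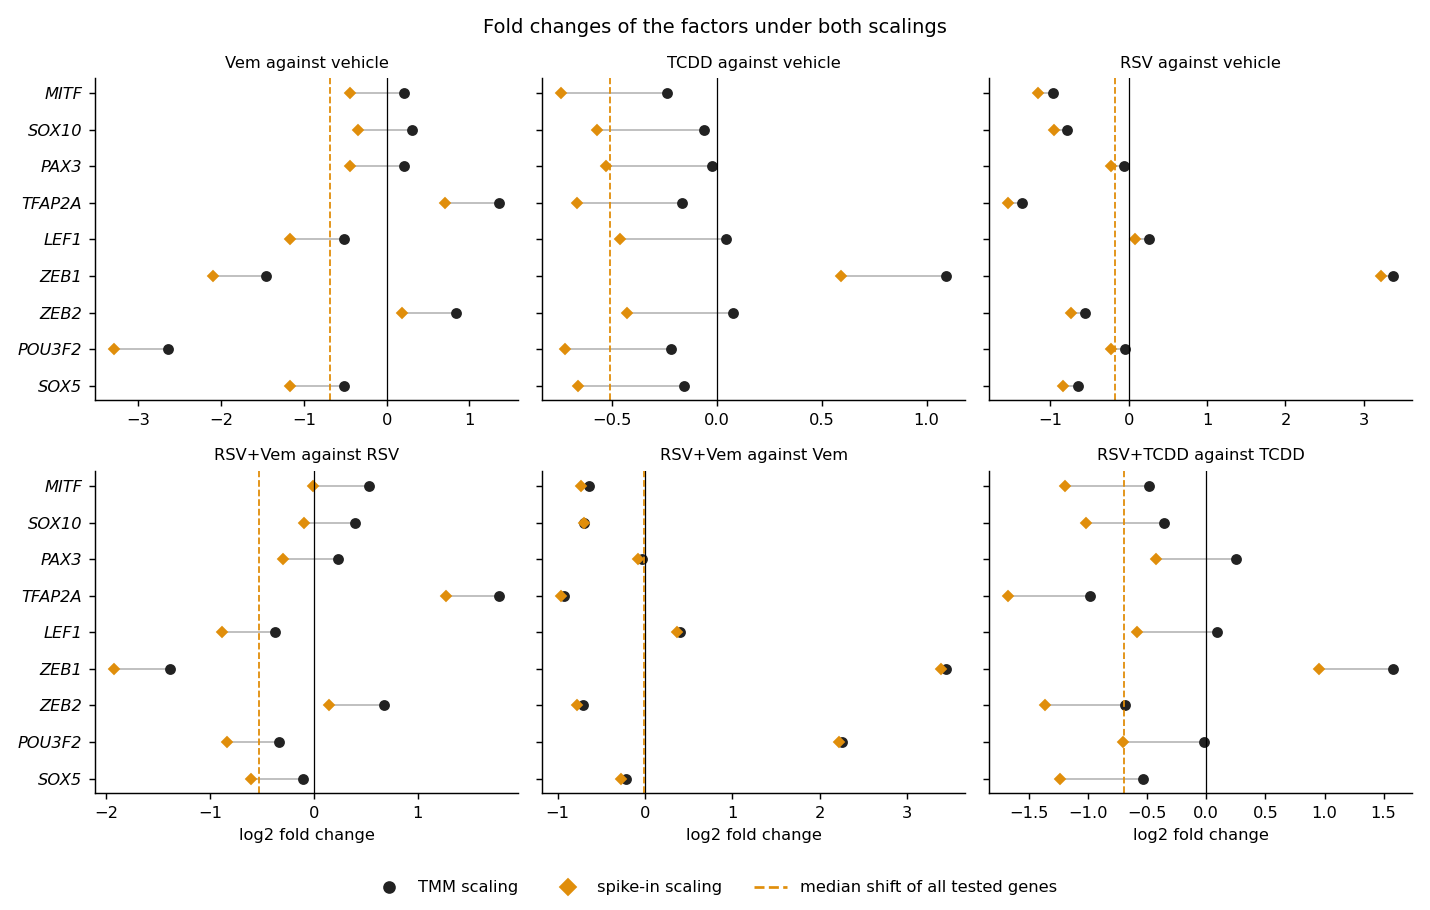
Log2 fold changes (horizontal axes, each with its own range) of the 9 tested factors in 6 comparisons under TMM scaling (circles) and spike-in scaling (diamonds), with a dashed line at the median of all tested genes under spike-in scaling. All factors move by about the same step within a comparison, to the left by up to 0.696 for the medians of the 6 shown, and POU3F2 with Vem and TFAP2A with RSV stay on their side of 0.

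Target genes of MITF and SOX10 were followed as a list of 23 genes, of which 22 were tested. With Vem 16 were higher and 3 lower, where 25.5% of all genes were higher and 26.9% lower, and the median was 0.49 against -0.030 over all tested genes. MITF itself was not called with Vem. DCT, a melanin enzyme, rose by 1.51, whereas S100B was at -1.82 and BIRC7 at -1.47. With RSV 2 were higher and 15 lower, against 20.5% and 20.2% of all genes, and the median was -0.53 against -0.0018. The pigment enzyme TYRP1 was at -1.55 and the channel TRPM1 at -1.51, while S100B rose by 0.78 and GPNMB by 0.64. With TCDD 7 were higher and 0 lower, against 4.72% and 2.01% of all genes (median 0.24 against -0.0046), among them the receptor KIT (0.71). In the interaction of RSV and Vem 3 were higher and 6 lower, against 11.8% and 10.9% of all genes (median -0.22 against 0.024), from -1.27 for BCL2A1 to 0.90 for ERBB3.

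Of 35 other factors of the lineage and the switch, 28 were tested. With Vem 8 were higher and 11 lower, against 25.5% and 26.9% of all genes (median 0.12 against -0.030). IRF4, a melanocyte factor, rose by 1.58 and SOX4 by 0.99, while HES1, the Notch effector, was at -4.44 and SNAI1 at -3.02. With RSV 7 were higher and 12 lower, against 20.5% and 20.2% of all genes (median -0.23 against -0.0018), with ID1 at 1.35 and KLF4 at 0.83 and with TCF4 at -0.84 and HES1 at -0.79. With TCDD 1 was higher, SNAI2 at 1.22, and 5 were lower, against 4.72% and 2.01% of all genes (median -0.13 against -0.0046), among them ID1 at -1.44 and SNAI1 at -1.29. In the interaction of RSV and Vem 7 were higher and 1 lower, against 11.8% and 10.9% of all genes (median 0.30 against 0.024), led by HES1 (3.40) and SNAI1 (2.01), for which, like POU3F2, the effect of Vem was less negative with RSV.

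The Wnt list of 13 genes had 11 tested members. With Vem, where LEF1 fell, 1 was higher and 5 lower, against 25.5% and 26.9% of all genes (median -0.23 against -0.030). BAMBI rose by 0.46, TNFRSF19 was at -1.96 and the feedback gene NKD1 at -0.73. With RSV 3 were higher and 4 lower, against 20.5% and 20.2% of all genes (median -0.062 against -0.0018), and CTNNB1, which encodes β-catenin itself, was at -0.86. With TCDD 0 were higher and 1 was lower, BAMBI at -0.41, against 4.72% and 2.01% of all genes (median -0.14 against -0.0046). The interaction of RSV and Vem called 2 higher, TNFRSF19 (0.85) and ZNRF3 (0.54), and 0 lower, against 11.8% and 10.9% of all genes.

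Of 11 genes of epithelial and mesenchymal state, 7 were tested, and CDH1, the E-cadherin gene that ZEB1 is known to repress, held 6 to 24 counts per library. With Vem 4 were higher and 2 lower, against 25.5% and 26.9% of all genes (median 0.71 against -0.030), with the splicing factor ESRP1 at 1.07, VIM at 0.85 and FN1 at -0.80. With RSV 3 were higher and 3 lower, against 20.5% and 20.2% of all genes (median -0.025 against -0.0018), with ESRP1 at 0.68, CDH3 at -0.72 and VIM at -0.38. With TCDD 2 were higher, FN1 (1.35) and CDH3 (0.36), and 1 lower, ESRP1 (-0.71), against 4.72% and 2.01% of all genes. In the interaction of RSV and Vem 0 were higher and 5 lower, including SPARC (-0.94), against 11.8% and 10.9% of all genes. Of 13 dedifferentiation and resistance markers, 9 were tested and their summed level was 8.14 to 28.9 CPM, with AXL at 0 to 3 counts and NGFR at 0 to 34. With Vem 0 were higher and 6 lower, including ITGA1 (-2.46) and LPAR1 (-1.68), against 25.5% and 26.9% of all genes. With RSV 4 were higher and 0 lower, including ITGA1 (0.53), against 20.5% and 20.2% of all genes. With TCDD 1 was higher and 1 lower, against 4.72% and 2.01% of all genes. In the interaction of RSV and Vem 2 were higher, GCNT1 (2.25) and WNT5A (1.20), and 0 lower, against 11.8% and 10.9% of all genes.

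The check of the ligands read 4 AhR output genes. With TCDD 3 were higher, CYP1A1 by 2.62, CYP1B1 by 2.20 and TIPARP by 0.96. With RSV CYP1A1 was higher by 1.55 and TIPARP by 0.35. With Vem CYP1A1 was at -0.84, TIPARP at -0.59 and AHRR at 1.57. CYP1A1 was also the AhR gene with an interaction of RSV and TCDD (-3.32, adjusted p = 1.49e-09). The TCDD libraries thus showed the AhR response. None of the 9 factors was called for TCDD against vehicle. With 6.73% of all tested genes called there, 0 of 9 does not set the factors apart.

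Reads of overlapping genes could touch the values of some factors. TFAP2A-AS1, antisense to TFAP2A with 438 shared exon bases, was at 6.12 and 4.81 CPM in vehicle, 23.0 and 25.9 with Vem, and 2.47 and 1.73 with RSV. It rose by 2.17 with Vem (adjusted p = 5.41e-07) and was at -1.38 with RSV (adjusted p = 0.00114), the directions of TFAP2A at a far lower level, and its part in the TFAP2A result was not tested. POLR2F overlaps SOX10 by 260 exon bases on the other strand and was at -0.075 with Vem (adjusted p = 0.57). LEF1-AS1 held 0 to 9 counts and ZEB2-AS1 1 to 11. The counting used strand, and in 7 pairs of an antisense transcript and a coding gene that share at least 80% of the antisense exons the median ratio of counts per base was 0.0014, with 0 pairs above 1.

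The genes whose mean log2 CPM over the 6 groups ran closest to each factor, among 11954 tested genes averaging 50 counts or more, were ZNF407 and NCOA2 for MITF (root-mean-square difference 0.0153 and 0.0595, where the MITF profile itself varied by 0.408), COBL and TPI1P1 for SOX10 (0.0551 and 0.0572, own 0.353), and DVL2 and TIMM22 for PAX3 (0.0254 and 0.0383, own 0.116). For LEF1 they were COL9A1 and POP7 (0.0436 and 0.044, own 0.243), for ZEB2 RPS6KC1 and KIAA1211 (0.0814 and 0.0873, own 0.483), for ZEB1 LINC00426 and DNAH6 (0.126 and 0.144, own 0.59) and for SOX5 GEMIN5 and CNOT6 (0.0187 and 0.0345, own 0.273). TFAP2A had the least similar neighbours, TMEM117 (0.225) and APC2 (0.24), for a profile that varied by 0.918. POU3F2, with a variation of 0.877, had KIF18A (0.0907), a mitotic kinesin, and MND1 (0.149), a meiotic recombination factor, as its closest genes.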

How the data were processed

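The authors made stranded mRNA libraries, sequenced read pairs on a NextSeq500, aligned them with STAR 2.4.0a to hg19 (GRCh37) and summed them by gene symbol using featureCounts (Subread 1.5.0-p3) with its strand option. The deposited values are raw counts per gene and library for 56638 gene symbols. A further 96 rows hold controls (ERCC spike-ins in 92) and were left out of the tests. The annotation release counted is not given in the sources used here, and positions and promoters are from GENCODE release 44 on GRCh37.

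Groups were taken from the sample labels. Genes were kept with filterByExpr by group (16080 genes), scaled with TMM factors (0.89 to 1.08) and tested in R 4.3.3 with edgeR 4.0.16, by a quasi-likelihood F test (two-sided, robust, 1 term per group over the 12 libraries, 6 residual degrees of freedom) with Benjamini-Hochberg adjustment over all tested genes and a threshold of 0.05. The common biological coefficient of variation was 0.0915. An exact permutation test of 2 libraries against 2 cannot go below p = 0.333. Intervals are 95% intervals of the fit, and those of summed counts are exact binomial and cover counting error only, since reads had no molecular identifiers. The interaction is the effect of a ligand with RSV minus its effect without.

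Alternatives were DESeq2 1.42.0, RLE factors, spike-in scaling, 2 other filters, only the libraries compared, a replicate block, and each library left out. The factors and the gene lists were chosen with earlier results of these data known. All 10 factors are named, and of each other list the 2 called genes of highest and of lowest log2 fold change per comparison were eligible. Some items are not reported here. Profile neighbours used log2(CPM + 0.5), at a mean count of at least 50. The steps were tested on simulated data. Figures were drawn with matplotlib.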

Additional observations from a re-analysis of the deposited data

Results flagged for a closer look

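The effect of Vem differed with and without RSV by the test of the interaction in 2 of the 9 tested factors, where 22.7% of all tested genes were called. This count does not set the factors apart. For POU3F2 the difference was 2.31 on the log2 scale (edgeR quasi-likelihood test, adjusted p = 6.87e-07): it was at 25.4 and 25.3 CPM in vehicle, 4.03 and 4.07 with Vem, 22.5 and 26.6 with RSV and 19.7 and 19.1 with RSV+Vem. For TFAP2A the difference was 0.427 (adjusted p = 0.0195), with 207 and 188 CPM in vehicle, 524 and 489 with Vem, 73.7 and 80.7 with RSV and 271 and 261 with RSV+Vem. Under spike-in scaling neither was called, at 2.455 for POU3F2 and 0.57 for TFAP2A, where 8 of the 16080 tested genes were called. The POU3F2 call was made with every library left out in turn, and the TFAP2A call was lost in 4 of the 8.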

How the results depend on the processing

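Of the single-factor values under each alternative, 952 kept their side of the threshold and 22 gained a call. A further 70 lost the call with the same sign, and 4 lost it with a change of sign. The 952 include values called in neither fit that changed sign, such as MITF (-0.44) and PAX3 (-0.44) for Vem against vehicle under spike-in scaling. The 4 called values that changed sign did so with scaling to the ERCC spike-ins: SOX10 for Vem against vehicle (-0.34), MITF (-0.0055) and SOX10 (-0.091) for RSV+Vem against RSV, and SOX10 for RSV+TCDD against RSV (-0.65). Spike-in scaling left 3 factors called for Vem against vehicle (0 higher, 3 lower), 2 for RSV against vehicle (ZEB1 higher, TFAP2A lower), 2 for Vem against TCDD (1 and 1), 0 for RSV+Vem against RSV, 1 for RSV+Vem against Vem (1 higher), 5 for RSV+TCDD against RSV (all lower), 3 for RSV+TCDD against TCDD (all lower) and 0 in the interaction of RSV and Vem. For these comparisons, in the order given, it called 3815, 369, 1554, 481, 389, 6927, 1912 and 8 of the 16080 tested genes. It moved the median of all genes by -0.512 for TCDD against vehicle, -0.172 for RSV against vehicle and -0.696 for RSV+TCDD against TCDD. With only the libraries compared, 0 were called for RSV+TCDD against RSV, where 588 of 15281 tested genes were called. Without a filter 2 were called in the interaction of RSV and TCDD, where 170 of 31085 were called. Leaving out a library left 1 in its group and changed calls for RSV+Vem against RSV, RSV+TCDD against RSV, RSV+TCDD against TCDD and the interaction of RSV and Vem. Except in the interaction, fewer of all tested genes were called too, whichever library was left out. Lost calls there are therefore not particular to the factors. PAX3 was called higher with Vem than with TCDD by DESeq2 (0.26, adjusted p = 0.0494), with RLE factors, with at least 10 counts in every library and with only the libraries compared, and higher with RSV+TCDD than with TCDD with RLE factors (0.26, adjusted p = 0.0476), with at least 10 counts in every library (0.28, adjusted p = 0.0255) and with only the libraries compared (0.27, adjusted p = 0.0388). The causes were not tested. The labels do not say that a replicate number marks a shared culture or day, and the numbers were not taken as pairs. Over the tested genes, the log2 difference of replicate 2 from replicate 1 in a group was correlated with that in each other group. These correlations of differences, over 15 group pairs, ran from -0.195 to 0.242, with 6 over 0.1 and 3 under -0.1. The 3 pairs among RSV, RSV+Vem and RSV+TCDD were over 0.1 (0.242, 0.231 and 0.18). With a replicate block 6 factors were called for Vem against vehicle, where 8507 of the 16080 tested genes were called. For RSV+Vem against RSV it called 6, where 4065 of the 16080 were called. There ZEB1 was added (-1.51, adjusted p = 0.0332), and the block changed no other call among the factors. Depth limits ZEB1 and SOX9, and 2 libraries per group limit every estimate of spread.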
